A study of Mus musculus with 9 samples.

Results

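The 41 genes described here encode receptors, scaffolds, adhesion proteins and vesicle or release proteins of the synapse. They were taken by gene symbol from a table of estimated counts for 140658 transcripts, and all 41 symbols were found among its 54325, as 344 transcripts whose counts were summed per gene. The table comes from RIP-seq, the sequencing of RNA recovered by immunoprecipitation (IP), in mouse Neuro-2A (N2A) cells, a neuroblastoma line that divides in culture and serves as a source of neural RNA. All 9 libraries, controls included, come from cells exposed for 2 h to 200 nM of okadaic acid, which blocks protein phosphatases, and no allele or knockdown distinguishes the groups. Of these, 3 hold Input RNA (no IP), 3 hold RNA recovered with control rabbit IgG (rIgG IP) and 3 hold RNA recovered with an antibody to phosphorylated UPF1 (p-UPF1 IP). RNA was cut with RNase I and fragments of 25 to 50 nt were sequenced, so that the p-UPF1 IP libraries read the stretches of RNA left under the complex.

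UPF1 is the RNA helicase at the center of nonsense-mediated mRNA decay (NMD), and it becomes phosphorylated when it has been retained on an mRNA that is about to be degraded. NMD acts on mRNAs whose translation ends far enough upstream of an exon-exon junction, and also on many normal mRNAs. At an excitatory synapse, glutamate released from vesicles by SNARE proteins and synaptotagmins opens AMPA, NMDA and kainate receptors, which PSD-95-type, Shank and Homer scaffolds hold opposite the release site, while neurexins and neuroligins join both membranes. The comparison of p-UPF1 IP with Input asks which of these mRNAs take a larger share of the p-UPF1-bound fragments than of the cell's RNA, and the comparison with rIgG IP asks the same against RNA that sticks without the antibody.

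NMD is tied to particular splice forms. GENCODE M21, an annotation of GRCm38, classes 14 transcripts of 11 of these genes as nonsense-mediated decay transcripts, and the most-counted of them are those for which the sequence that sets them apart is shown. Each line holds 30 bases, read 5′ to 3′, that cross a junction used by no other transcript of the gene in that annotation, with the end of the upstream exon in lower case and the start of the downstream exon in capitals. The last pair are the alternative forms of Snap25, which share exon 4 and differ in exon 5.
Grik5-202: cctcaggggcgtgggTGTGTCAGATCCTGC
Gabbr1-205: cacccagtcgctgtgGCACCCTTCCCTCAT
Gria2-203: aggatcctcattaagTGGAGTCACATTCAA
Dlg4-205: gaggtagcagagcagAGAGATCAATAAGCG
Dlg1-209: ctccctctatgtcagTCTAGAGCCCTCTTT
Snap25-201: tggatgagcaaggcgAACAACTGGAACGCA
Snap25-202: tggatgagcaaggcgAACAACTCGATCGTG

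The Grik5-202 junction joins exon 3, which ends at 25067985, to exon 4, which starts at 25065470, on the minus strand of chromosome 7 of GRCm38. That of Gabbr1-205 joins 37047657 to 37049653 on the plus strand of chromosome 17, and that of Gria2-203 joins 80692285 to 80691743 on the minus strand of chromosome 3. Those of Dlg4-205 and Dlg1-209 join 70042743 to 70044276 on chromosome 11 and 31836304 to 31838045 on chromosome 16, both on the plus strand. On chromosome 2, exon 4 of Snap25 ends at 136763621 and is joined to 136770057 in Snap25-201 and to 136769743 in Snap25-202. All of these junctions lie inside the annotated coding sequence, but the 30 bases of Dlg4-205 run past its end. The last junction of Dlg4-205, 83 nt after that end, is a different one. Reads over single junctions were not analysed here, and the values given further on for these transcripts are the estimated counts.

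Depth set which genes could be judged. Total counts were 25184464 to 29857955 in Input, 5312526 to 6246110 in the p-UPF1 IP and 79010 to 474491 in the rIgG IP, and the 41 genes together had 6562 to 7059, 1936 to 2425 and 17 to 106 counts. That is 0.0236 to 0.0271% of Input counts, 0.035 to 0.0402% of p-UPF1 IP counts and 0.0215 to 0.0297% of rIgG IP counts. The 3 libraries of a group are labelled as replicates and whether the sequenced libraries are separate cultures is not given in the sources used here, so p-values measure the spread between these libraries, which may be technical. Of the markers of the sympathetic neuroblastoma lineage, 17 of 20 had more than 3 counts in every Input library, and their summed level was 433 to 481 CPM (counts per 1000000 of the library total) in Input, 439 to 456 CPM in rIgG IP and 472 to 508 CPM in the p-UPF1 IP. Astrocyte markers summed to at most 0.154 CPM and microglia markers to at most 0.199 CPM in Input, with no member of either list above 3 counts in all Input libraries, and Slc17a6, Gad1, Gad2 and Neurod6, which mark glutamatergic and GABAergic neurons, had at most 6 counts in any library. Oligodendrocyte markers summed to 2.46 to 3.8 CPM in Input and 11.2 to 14.1 CPM in the p-UPF1 IP, while Olig1 was at 0 in all libraries and Olig2 and Sox10 had at most 1 count, and the part of these genes in the results was not tested.

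Of the 41 genes, 13 were too low to judge in p-UPF1 IP over Input. Grin2a and Grin2b (NMDA receptor subunits), Gria1, Gria3 and Gria4 (AMPA receptor subunits), Grm5 (a metabotropic glutamate receptor), Gabbr2 (the second GABA-B subunit), Nlgn1 (a neuroligin) and Pclo (an active zone scaffold) had fewer than 10 counts over the 6 libraries and were not tested, with at most 5 counts in any single library. Grik2 (a kainate receptor subunit), Shank3, Homer2 (postsynaptic scaffolds) and Nlgn3 were tested, but their pooled share predicts only 2.91 to 6.05 counts for the p-UPF1 IP libraries together, under the minimum of 10. None of these 4 passed the test. Of Nlgn3, for example, the highest count in one library was 8 in Input and 2 in the p-UPF1 IP. Counts this low leave wide 95% intervals of the log2 fold change, from -0.63 to 2.14 for Homer2 and from -4.37 to 1.11 for Grik2. Changes of the size seen in many other members could therefore go undetected at this depth.

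The remaining 28 genes were compared with edgeR's quasi-likelihood test fitted on all genes, and Benjamini-Hochberg adjusted p-values under 0.05 were taken as higher or lower. Of the 28, 15 were higher in the p-UPF1 IP, 7 were lower and 6 did not pass. Among all 12657 genes with enough counts to be judged, 32.7% were higher and 41.4% were lower, and among all 16919 tested the shares were 26.3% and 35.7%. With a log2 fold change beyond 1 also required, 7 of the 28 were enriched and 4 were depleted, against 20.7% and 29.1% of the judged genes. The median log2 fold change was 0.30 over the 28 and -0.23 over the judged genes, and 19 of the 28 lay above the latter. These values follow TMM scaling, which centers on the bulk of the genes. Scaling by library totals alone raises the median of all tested genes by 0.41 and every member with it, which turns Gabbr1, Dlg2, Nrxn3 and Syp from negative to positive, and no other member. With totals 16 members were higher and 4 were lower, because Bsn then passed as higher while Dlg1, Nlgn2 and Syn2 no longer passed as lower. The shares of all genes given above are those under TMM scaling, so the counts with totals cannot be set against them.

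**Figure D1:**
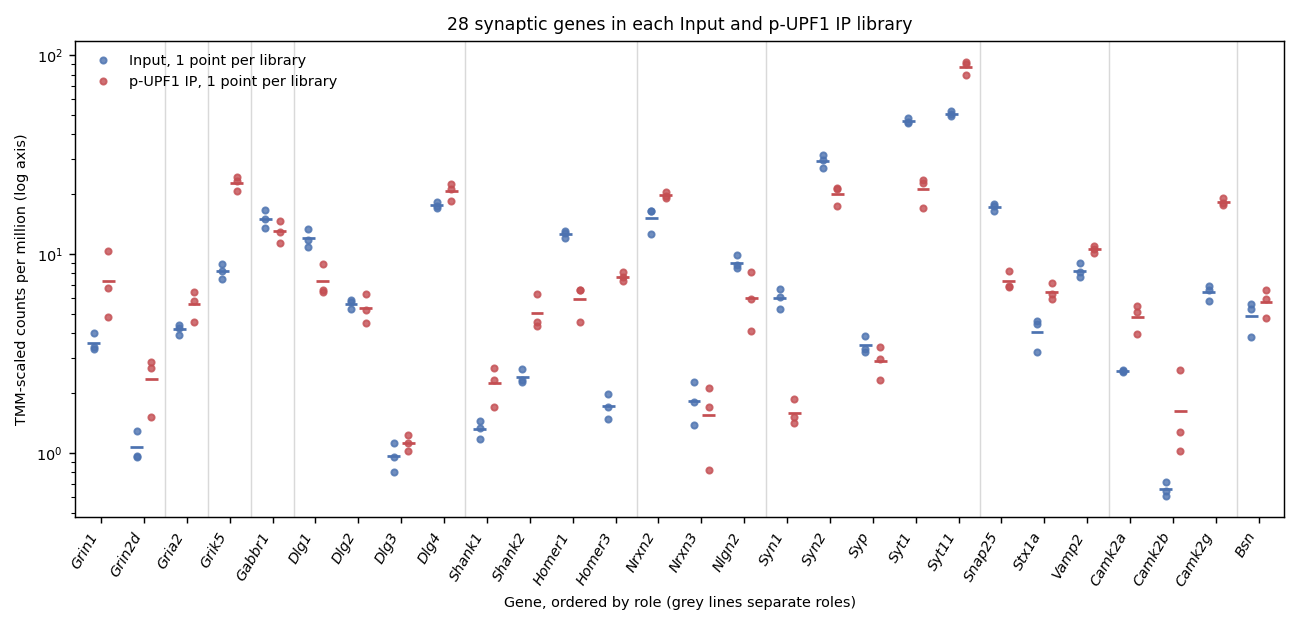
TMM-scaled CPM on a log axis for the 28 synaptic genes with enough counts, 1 point for each of the 3 Input (blue) and 3 p-UPF1 IP (red) libraries, with the group mean as a bar and grey lines between roles. Syt11 stands highest in both groups, Homer3, Grik5 and Camk2g show the widest upward gaps, and Syn1 shows the widest downward gap.

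NMDA, AMPA and kainate receptor genes were among those that were higher in the p-UPF1 IP. Of 13 receptor genes, 5 could be judged and 4 of these were higher, next to 32.7% of all judged genes. Grik5, which encodes the kainate receptor subunit GluK5 (chromosome 7, 25009849 to 25072346, minus strand), was at 8.91, 8.26 and 7.51 TMM-scaled CPM in the Input libraries and at 20.8, 24.3 and 23.2 CPM in the p-UPF1 IP libraries. The groups lay far apart, and the 2.78-fold difference had a log2 value of 1.47 with a 95% confidence interval of 1.26 to 1.69 (adjusted p = 4.68e-07, edgeR). Grin1 encodes GluN1, the obligatory subunit of NMDA receptors (chromosome 2, 25291181 to 25319187, minus strand), and was at 4, 3.39 and 3.34 CPM in Input and 10.3, 4.8 and 6.76 CPM in the p-UPF1 IP. Its p-UPF1 IP libraries were all above its Input libraries but spread widely, replicate 1 being the highest, and without that library the log2 fold change was 0.73.

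Grin2d, which encodes the NMDA receptor subunit GluN2D (chromosome 7, 45831883 to 45878378), was at 0.956, 1.29 and 0.964 CPM in Input and 2.88, 1.51 and 2.68 CPM in the p-UPF1 IP, from at most 29 counts in any library. The groups did not overlap, and the log2 fold change was 1.12 with an interval of 0.41 to 1.83 (adjusted p = 0.0112, edgeR). Gria2 encodes GluA2, the subunit that makes AMPA receptors impermeable to calcium, and was at 4.39, 4.24 and 3.9 CPM in Input and 4.57, 6.45 and 5.78 CPM in the p-UPF1 IP. Its lowest p-UPF1 IP library lay just above its highest Input library, and its log2 fold change of 0.43 passed narrowly (adjusted p = 0.0355, edgeR), with adjusted p-values of 0.0524 to 0.117 after removal of replicate 2 or 3 of Input or of the p-UPF1 IP, and of 0.133 with no filter on low counts and 0.0522 in limma. Gabbr1, which encodes the ligand-binding subunit of the GABA-B receptor, was at 16.7, 15 and 13.5 CPM in Input and 11.4, 14.7 and 13 CPM in the p-UPF1 IP. These groups overlapped, and its log2 fold change of -0.21 had an interval of -0.47 to 0.06.

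Scaffold genes went both ways, within families as well as between them. Homer3, a member of the Homer family that links metabotropic glutamate receptors to Shank (chromosome 8, 70282827 to 70294361, plus strand), was at 1.48, 1.7 and 1.97 CPM in Input and 7.62, 8.1 and 7.33 CPM in the p-UPF1 IP. This 4.46-fold difference was the largest upward one of the 28 (log2 fold change 2.16, interval 1.79 to 2.53, adjusted p = 1.36e-06, edgeR). Homer1 (chromosome 13, 93299635 to 93405129, plus strand) moved the other way, from 13, 12.8 and 12.1 CPM in Input to 4.57, 6.59 and 6.62 CPM in the p-UPF1 IP. It was 2.1-fold lower (log2 fold change -1.07, interval -1.37 to -0.78), and its interval does not meet that of Homer3. The difference between the 2 genes was not tested in itself.

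Shank2 and Shank1, whose proteins form the deeper layer of the postsynaptic density, were both higher. Shank2 (chromosome 7, 144001928 to 144424494) was at 2.26, 2.32 and 2.65 CPM in Input and 6.27, 4.53 and 4.37 CPM in the p-UPF1 IP, a log2 fold change of 1.05 with an interval of 0.62 to 1.48. Shank1 was at 1.17, 1.34 and 1.45 CPM in Input and 1.69, 2.33 and 2.68 CPM in the p-UPF1 IP. Neither gene's groups overlapped. The log2 fold change of Shank1, 0.77, lost its call after removal of replicate 1 or 2 of Input, or replicate 2 or 3 of the p-UPF1 IP (adjusted p = 0.0511 to 0.0961, edgeR), and with no filter on low counts (0.0876).

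The 4 MAGUK scaffolds, which anchor receptors under the membrane, went both ways, with 1 higher, 1 lower and 2 that did not pass. Dlg4, which encodes PSD-95, was at 18.3, 17.4 and 17.1 CPM in Input and 21.3, 22.6 and 18.6 CPM in the p-UPF1 IP, and its log2 fold change of 0.25 passed (adjusted p = 0.0375, edgeR) but did not after removal of replicate 2 or 3 of Input, or replicate 2 of the p-UPF1 IP (adjusted p = 0.0594 to 0.0941), nor with no filter on low counts (0.242). Dlg1, which encodes SAP97, was at 11.8, 10.9 and 13.4 CPM in Input and 6.44, 6.59 and 8.87 CPM in the p-UPF1 IP. It was 1.64-fold lower, with no overlap (log2 fold change -0.72, adjusted p = 0.00135, edgeR), the widest change of these 4. Dlg2 (log2 fold change -0.07, interval -0.41 to 0.27) and Dlg3 (0.24, interval -0.50 to 0.98) overlapped between the groups and did not pass.

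Of the adhesion genes, Nrxn2, a presynaptic neurexin, was higher and Nlgn2, the neuroligin of inhibitory synapses, was lower. Nrxn2 was at 16.4, 16.6 and 12.7 CPM in Input and 19.1, 19.5 and 20.6 CPM in the p-UPF1 IP (log2 fold change 0.38, interval 0.12 to 0.64). Nlgn2 was at 8.52, 9.86 and 8.76 CPM in Input and 5.93, 8.1 and 4.09 CPM in the p-UPF1 IP. The highest p-UPF1 IP library of Nlgn2 lay just under its lowest Input library, and its log2 fold change of -0.58 (adjusted p = 0.0238, edgeR) did not pass without Input replicate 2, p-UPF1 IP replicate 1 or p-UPF1 IP replicate 3 (adjusted p = 0.0526 to 0.12). Nrxn3 overlapped, at -0.24 with an interval of -1.04 to 0.55.

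Of the 5 vesicle genes 3 were lower, next to 41.4% of all judged genes. Among the 3 was Syn1, the most strongly depleted of the 28. Syn1 encodes synapsin I, which tethers vesicles to actin (chromosome X, 20860511 to 20921004, minus strand), and was at 6.69, 5.31 and 6.11 CPM in Input and 1.86, 1.51 and 1.41 CPM in the p-UPF1 IP. It was 3.81-fold lower (log2 fold change -1.93, interval -2.36 to -1.49, adjusted p = 1.05e-05, edgeR). Syt1, the calcium sensor of fast release (chromosome 10, 108497650 to 109010982, minus strand), fell from 48.6, 45.6 and 45.9 CPM to 23.6, 22.8 and 17 CPM. It was 2.22-fold lower, with a log2 fold change of -1.15 and an interval of -1.39 to -0.90.

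Syn2 encodes synapsin II and was at 31.4, 29.8 and 27.1 CPM in Input and 21.3, 17.4 and 21.4 CPM in the p-UPF1 IP. Its groups were apart, but by less than those of Syn1, with a log2 fold change of -0.56 and an interval of -0.78 to -0.33. Syp, the vesicle membrane protein synaptophysin, overlapped (log2 fold change -0.28, interval -0.71 to 0.16). Syt11, a synaptotagmin that does not bind calcium, was the exception in direction and the most abundant member (chromosome 3, 88744700 to 88775164, minus strand). It was at 52.2, 50.8 and 49.5 CPM in Input and 90.3, 92.1 and 79.9 CPM in the p-UPF1 IP, 1.72-fold higher (log2 fold change 0.78, interval 0.62 to 0.95, adjusted p = 7e-06, edgeR).

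The 3 SNARE genes, whose proteins fuse the vesicle with the plasma membrane as one complex, did not move together. Snap25 (chromosome 2, 136713453 to 136782428, plus strand) was at 17.8, 16.5 and 17.4 CPM in Input and 6.95, 6.86 and 8.17 CPM in the p-UPF1 IP, 2.35-fold lower (log2 fold change -1.23, interval -1.45 to -1.01, adjusted p = 1.99e-06, edgeR). Its partners on the plasma membrane and the vesicle were higher. Stx1a, syntaxin 1A, was at 4.43, 3.21 and 4.58 CPM in Input and 7.12, 6.31 and 5.92 CPM in the p-UPF1 IP (log2 fold change 0.65), and Vamp2, synaptobrevin 2, was at 9.04, 7.68 and 8.08 CPM and 11, 10.2 and 10.6 CPM (0.35, adjusted p = 0.0152, edgeR). In neither did the groups overlap, and with no filter on low counts Vamp2 did not pass (adjusted p = 0.0968, edgeR).

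All 3 CaMKII genes among the 41, which encode subunits of the kinase that strengthens excitatory synapses, were higher, next to 32.7% of all judged genes. The remaining gene of the family, Camk2d, is not among the 41 and is named after its values were seen. It was lower, at 17.7, 20 and 17.6 CPM in Input and 12, 15.2 and 14.4 CPM in the p-UPF1 IP (log2 fold change -0.40, adjusted p = 0.00689, edgeR), and with library totals it stood at 0.0059. Camk2g (chromosome 14, 20734875 to 20794088, minus strand) was at 6.61, 6.92 and 5.83 CPM in Input and 18.1, 19.2 and 17.7 CPM in the p-UPF1 IP, 2.85-fold higher (log2 fold change 1.51, interval 1.29 to 1.73, adjusted p = 3.83e-07, edgeR). Camk2a was at 2.56, 2.59 and 2.61 CPM in Input and 5.08, 5.49 and 3.94 CPM in the p-UPF1 IP (log2 fold change 0.90, interval 0.51 to 1.29). Camk2b rested on at most 19 counts in a library and was at 0.609, 0.714 and 0.643 CPM in Input and 1.02, 2.61 and 1.27 CPM in the p-UPF1 IP. Replicate 2 of the p-UPF1 IP stood above the other 2, and without it the log2 fold change of Camk2b went from 1.33 to 0.84 and no longer passed (adjusted p = 0.11, edgeR). Of the active zone scaffolds, Bsn (bassoon) was at 5.61, 5.27 and 3.82 CPM in Input and 5.93, 6.59 and 4.79 CPM in the p-UPF1 IP, which overlapped (log2 fold change 0.24, interval -0.19 to 0.67).

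**Figure D2:**
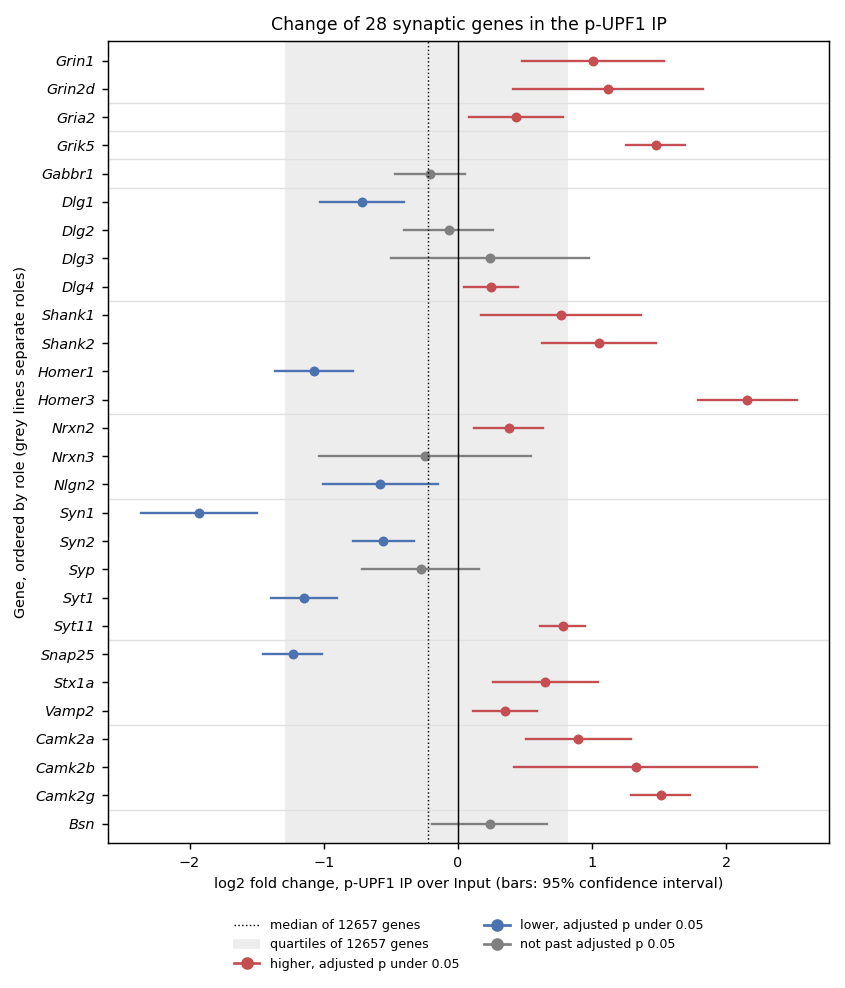
Log2 fold change of the p-UPF1 IP over Input for the 28 synaptic genes, with 95% confidence intervals from edgeR, in red where higher, blue where lower and grey where the test was not passed; the dotted line is the median of the 12657 judged genes, -0.23, and the shaded band their quartiles. Receptor and CaMKII genes lie right of 0 except Gabbr1, while Syn1, Snap25, Syt1 and Homer1 lie left of -1.

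Levels of different genes were set side by side per kilobase of transcript. The length of a gene was the mean over its transcripts, weighted by their estimated counts in all 9 libraries. The same length served both groups, so it does not follow differences in transcript assignment between them. Syt11 led in both groups, with 11.9 ± 0.311 CPM per kb in Input and 20.5 ± 1.54 CPM per kb in the p-UPF1 IP (SD, n = 3). In Input it was followed by Syn2 (10.3 ± 0.766), Syt1 (9.87 ± 0.349) and Snap25 (8.45 ± 0.321), of which Syn2 and Syt1 differed by less than their spread. The order in the p-UPF1 IP was another one. Grik5 went from place 11 in Input, with 2.47 ± 0.21 CPM per kb, to place 3, with 6.84 ± 0.53. Homer3 went from place 19 (0.933 ± 0.134) to place 9 (4.18 ± 0.211), and Syn1 from place 15 (1.88 ± 0.216) to place 22 (0.497 ± 0.0745). Shank1 was last in both, at 0.135 ± 0.014 and 0.229 ± 0.051 CPM per kb. In the p-UPF1 IP, however, it differed from Nrxn3 (0.229 ± 0.098) by less than their spread.

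Base composition ran with the changes. Across the 28 genes, the log2 fold change over Input and the G+C share of the 3' UTR had a Spearman correlation of 0.60 (Pearson 0.58), and across 10895 judged genes the Spearman correlation was 0.48 (Pearson 0.42). These are descriptions across genes that share the same 6 libraries, and genes are not independent replicates. For the G+C share of the whole transcript the Spearman correlation was 0.45 over the 28 and 0.39 over 12640 genes, while for transcript length it was -0.01 and 0.22 and for 3' UTR length -0.08 and 0.14. When the genes were divided into 5 equal bins by 3' UTR G+C, the median log2 fold change rose from -1.09 in the bin under 37.4% to 0.82 in the bin over 51.5%. In the latter, 60.9% of genes were higher, and of the 11 members in it, Camk2a, Camk2b, Grik5, Grin1, Grin2d, Homer3, Nrxn2, Shank1 and Stx1a were higher, Nlgn2 was lower and Syp did not pass. In the 2 lowest bins, which hold 7 members, Gria2 was higher, and Homer1, Dlg1, Snap25 and Syt1 were lower. Syn1, with a 3' UTR G+C of 48.9%, stood at -1.93 in a bin whose median was 0.44. Whether base composition has a part in these changes was not tested.

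**Figure D3:**
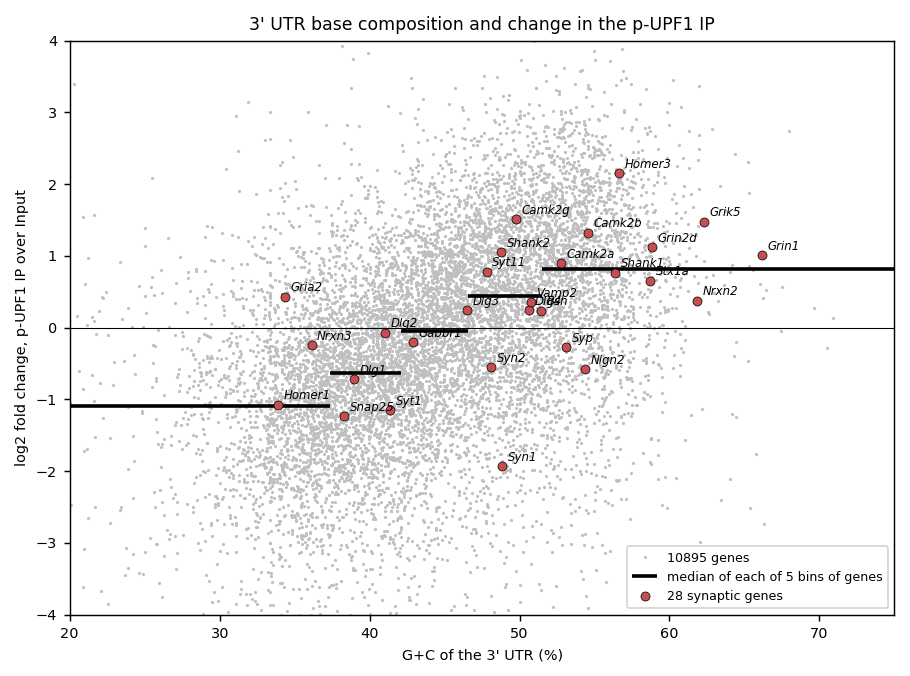
G+C share of the 3' UTR (percent) against the log2 fold change of the p-UPF1 IP over Input, for 10895 genes (grey; 236 lie outside the axes) and the 28 synaptic genes (red, named), with the median of each of 5 equal bins of genes as a black bar. Members at high G+C, such as Grik5 and Homer3, lie above 0 and those at low G+C, such as Homer1 and Snap25, below, while Gria2 and Syn1 lie off this course.

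The estimated counts of single transcripts gave a less steady picture than the sums per gene. Of the 344 member transcripts 119 were tested, of which 6 were enriched and 15 depleted (adjusted p under 0.05 and log2 fold change beyond 1, edgeR), which is 5.04% and 12.6%, against 8.55% and 16.2% of all 42616 transcripts tested. After removal of Input replicate 3, 9 were depleted and 4 enriched, for which the share of all transcripts is not given here. Assignment between transcripts changed even between replicates. Of 79 member transcripts that reached 15 counts in an Input library, 29 were at 0 in another Input library, and of 49 that did so in a p-UPF1 IP library, 23 were at 0 in another. Syt11 shows the pattern at high counts. Syt11-201 had 992, 0 and 0 counts in the Input libraries and Syt11-203 had 0, 923 and 894, although the gene's total ran only from 1138 to 1232, and of the stretches of 35 nt in Syt11-201, 0% are absent from the gene's other transcripts.

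Syn2 had its counts on different transcripts in the 2 groups for the most part. Syn2-202, a coding form (chromosome 6, 115134902 to 115276559), was at 0 throughout Input and reached 113, 113 and 132 in the p-UPF1 IP, at least 112-fold higher when set against 3 counts per library. Syn2-205, annotated as a retained intron form, went from Input counts of 372, 292 and 323 to 0 throughout the p-UPF1 IP, at least 38.7-fold lower on the same floor. Neither has a stretch of 35 nt of its own. Syn2-201, of whose stretches 34.4% are found in no other Syn2 transcript, had Input counts of 171, 195 and 178 and p-UPF1 IP counts of 11, 12 and 20, with a log2 fold change of -2.18 (adjusted p = 0.00335, edgeR). How Salmon's assignment among overlapping transcripts bears on these values was not tested.

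Where a transcript has much sequence of its own, its change can be read with the gene's. Homer1-204, the form with a short coding region of 558 nt, has 77.2% of its stretches to itself and had Input counts of 161, 156 and 172 and p-UPF1 IP counts of 5, 19 and 21. It was depleted, with a log2 fold change of -1.99 (adjusted p = 0.0287, edgeR), next to -1.07 for the gene. It did not pass with library totals (-1.28, adjusted p = 0.107, edgeR), or after removal of any Input library or of p-UPF1 IP replicate 2 (adjusted p = 0.0656 to 0.0836). Snap25-201, whose exon 5 junction is printed above, has 58.4% and had Input counts of 369, 318 and 390 and p-UPF1 IP counts of 41, 50 and 41 (log2 fold change -1.53, adjusted p = 0.00133, edgeR), a change of -0.82 with library totals (adjusted p = 0.0127). Its sister form Snap25-202 had Input counts of 36, 42 and 41 and p-UPF1 IP counts of 0, 0 and 17, too uneven to tell apart (adjusted p = 0.54).

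None of the 11 tested nonsense-mediated decay transcripts was enriched, and 1 was depleted, next to 8.55% and 16.2% of all 42616 transcripts tested. So few transcripts cannot tell these counts from those shares. At an unadjusted p under 0.05, 3 were higher and 2 lower in edgeR, and DESeq2 called 0 enriched and 1 depleted. Grik5-202, whose last junction lies 2149 nt past its annotated stop, had Input counts of 159, 125 and 155 and p-UPF1 IP counts of 64, 77 and 126 (log2 fold change 0.76, adjusted p = 0.0758, edgeR). Gria2-203, with a distance of 480 nt, had 37, 39 and 68 counts and 25, 40 and 28 counts (0.87, adjusted p = 0.105), and Gabbr1-205, with 1965 nt, had 315, 291 and 274 and 57, 88 and 72 (-0.54, adjusted p = 0.055). Dlg4-205, with 83 nt, had Input counts of 213, 174 and 229 and p-UPF1 IP counts of 0, 2 and 0. It was the depleted one (adjusted p = 0.0052, edgeR). Dlg4-205 held 49.9% of the gene's Input counts and 0.473% of its p-UPF1 IP counts, while the gene's log2 fold change was 0.25. Only 1.09% of the stretches in Dlg4-205 are absent from the gene's other transcripts, next to 1.66% in Grik5-202 and 2.66% in Gria2-203. Whether Salmon's assignment among overlapping transcripts accounts for the depletion of Dlg4-205 was not tested. Dlg1-209 was counted in 1 library of each group, with 111 counts in Input replicate 2 and 46 in p-UPF1 IP replicate 2. Taken as a share of all counts of the 41 genes, this class made up 11.5 ± 0.696% in Input and 10.0 ± 1.47% in the p-UPF1 IP (SD, n = 3), ranges that overlap.

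**Figure D4:**
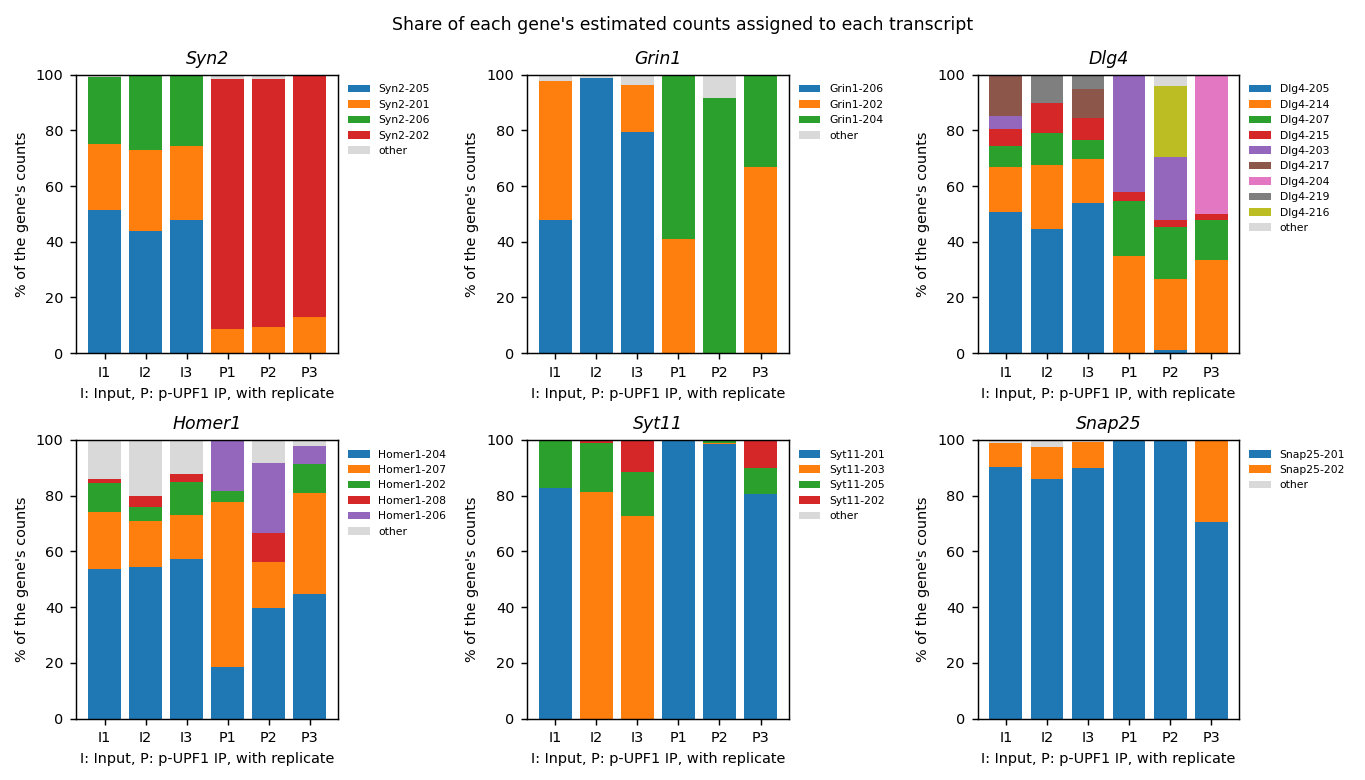
Share of a gene's estimated counts (percent) assigned to each of its transcripts in the 3 Input (I) and 3 p-UPF1 IP (P) libraries, for 6 synaptic genes; transcripts under 10% in every library are joined as other. Among these 6 libraries Syn2-205 and Grin1-206 appear in Input alone and Syn2-202 and Grin1-204 in the p-UPF1 IP alone, Syt11 takes different ones between Input replicates, and Snap25 keeps Snap25-201 as the largest.

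Against the rIgG IP, only 8 of the 41 genes had counts enough to be judged, because the rIgG libraries are shallow. This comparison shares its p-UPF1 IP libraries with the comparison to Input. The pooled share by which they were judged comes mostly from the deeper p-UPF1 IP, so Grik5 and Camk2g entered with 3 and 5 rIgG IP counts while Dlg1 and Snap25, with 12 and 11, did not, and nothing is read from how many of the 8 passed. Of all 28 members tested, 5 were higher and 1 was lower by edgeR's adjusted p, which is 17.9% and 3.57%, against 18.5% and 5.56% of all 12033 genes tested. The median log2 fold change of the 3475 judged genes was 1.25 in this comparison. Grik5 had 3, 0 and 0 counts in the rIgG IP and 123, 177 and 165 in the p-UPF1 IP. The ratio of its scaled totals was 7.07, with a 95% counting interval of 2.4 to 34.4, and its adjusted p was 0.00126 (edgeR). All 3 of its rIgG IP counts lie in replicate 1, and its fitted log2 fold change of 2.81 ran from 2.22 to 2.84 with any other library left out and to 9.57 without that one, where the rIgG IP is at 0 and the fitted value is no bound. Syt11 had 16, 13 and 1 counts in the rIgG IP and 533, 671 and 567 in the p-UPF1 IP, a log2 fold change of 1.43 with an interval of 0.84 to 2.03, and did not pass in limma (adjusted p = 0.0856).

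Nrxn2 had 2, 3 and 0 counts in the rIgG IP and 113, 142 and 146 in the p-UPF1 IP, and Camk2g had 2, 2 and 1 and 107, 140 and 126. Their log2 fold changes were 1.86 (adjusted p = 0.0116, edgeR) and 1.76 (adjusted p = 0.013, edgeR), and neither passed without rIgG IP replicate 1, the deepest of the 3 (adjusted p = 0.173 and 0.203, edgeR), with filterByExpr (0.05003 and 0.0638) or in DESeq2 (0.0626 and 0.0849). Nrxn2 also did not pass in limma (0.107) or with all 9 libraries in one fit (0.063), nor Camk2g with RLE factors (0.0516). Syn2 (log2 fold change 1.21, adjusted p = 0.0722), Gabbr1 (0.42), Dlg4 (0.36) and Syt1 (-0.57, interval -1.24 to 0.09) did not pass. The value of Syn2 lay near the median of the judged genes, 1.25. Syt1 passed as lower with filterByExpr (-0.94, adjusted p = 0.0346, edgeR) and in DESeq2 (-0.86, adjusted p = 0.0465). Homer3 and Syn1 passed but were too low to judge, with 1 and 7 counts over the 3 rIgG IP libraries, at log2 fold changes of 2.79 (adjusted p = 0.0334, edgeR) and -2.23 (adjusted p = 0.0196, edgeR). Homer3 lost its call under 11 of 14 alternatives, its fitted value running from 2.21 to 7.998 with single libraries left out, and Syn1 lost its call under 3.

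**Figure D5:**
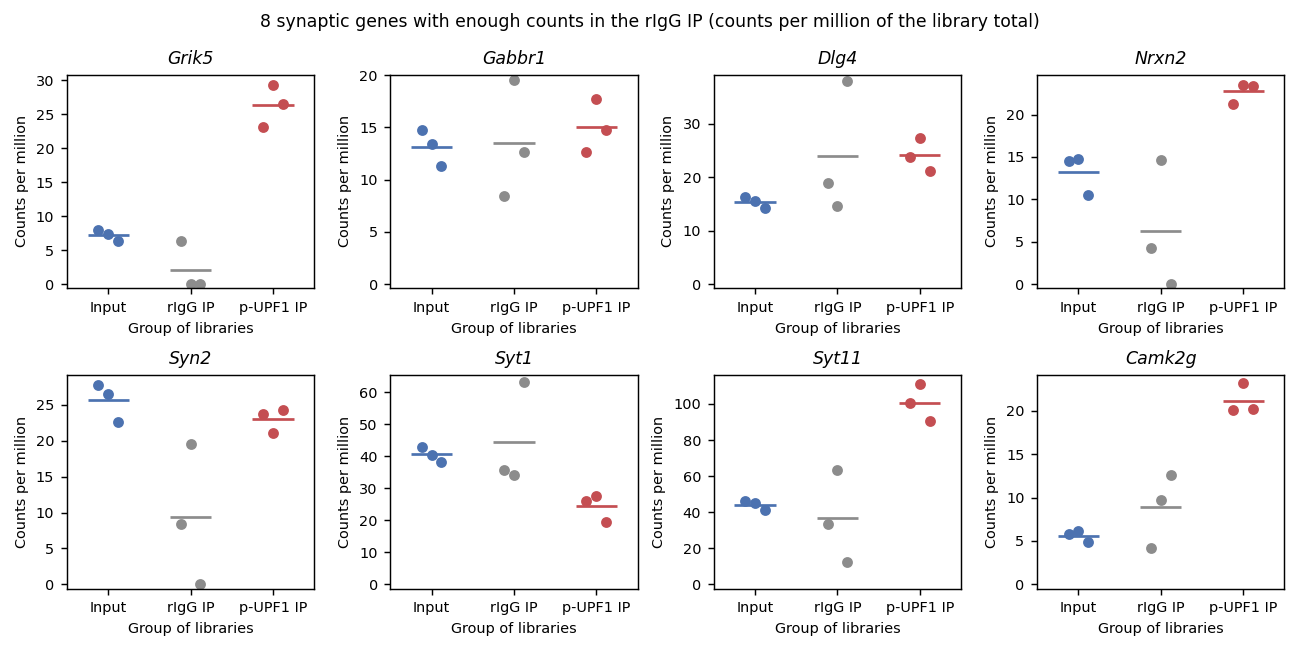
CPM, scaled by the library total, for the 8 synaptic genes with enough counts, 1 point for each of the 3 Input, 3 rIgG IP and 3 p-UPF1 IP libraries, with the group mean as a bar. The rIgG IP points are widely spread, and for Grik5, Nrxn2, Syt11 and Camk2g all p-UPF1 IP points lie above both other groups.

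In the rIgG IP over Input, which asks what the control antibody alone recovers, 0 of 31 tested members passed in edgeR and in DESeq2, against 0.584% of all genes higher and 0.313% lower in edgeR. In limma 0 members were higher and 5 lower, against 0.682% and 31.1% of all genes. At an unadjusted p under 0.05 there were 2, Syn2 and Nlgn3. Syn2 had Input counts of 723, 667 and 674 and rIgG IP counts of 4, 4 and 0, a log2 fold change of -1.49 (adjusted p = 0.198, edgeR). Syt1 had Input counts of 1118, 1021 and 1143 and rIgG IP counts of 17, 7 and 5, a log2 fold change of -0.30 with an interval of -0.83 to 0.22. Intervals of this width leave room for changes as large as those that several members show in the p-UPF1 IP.

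Other synaptic genes, 121 in 3 lists drawn up by function, went both ways in p-UPF1 IP over Input. Of the 63 that could be judged, 22 were higher and 23 were lower, next to 32.7% and 41.4% of all judged genes, and their median log2 fold change was -0.02, next to -0.23. Of other vesicle and release genes 15 of 41 were higher and 13 lower, of other scaffold and adhesion genes 5 of 13 were higher and 5 lower, and of other receptors, for glutamate, GABA, glycine and acetylcholine, 2 of 9 were higher and 5 lower. The highest were Ppfia3, which encodes the active zone protein liprin-alpha-3 (log2 fold change 2.23), Dlgap3, a scaffold that joins PSD-95 to Shank (1.88), Syt2 (1.63) and Vamp1 (1.49), which are relatives of Syt1 and Vamp2. Among the lowest were Rab3a, a small GTPase of the vesicle (-2.39), Syt4 (-2.14) and Gphn, which encodes gephyrin, the scaffold of inhibitory synapses (-1.47).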

How the data were processed

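RIP-seq of N2A cells was compared in 9 libraries, 3 each of Input, rIgG IP and p-UPF1 IP, grouped by their labels. The authors demultiplexed reads with bcl2fastq, trimmed them with fastp, mapped them with STAR 2.7.0f to GRCm38 and quantified Gencode M22 transcripts with Salmon 0.13.1. The authors deposited Salmon's estimated counts for each transcript as whole numbers without library scaling; the rounding step is not given in the sources used here. Reads of 25 to 50 nt shared by overlapping transcripts are divided by Salmon's model, and PCR copies cannot be told from independent molecules. Counting intervals and floors cover counting error only, while edgeR's intervals also take in the spread between libraries. All columns were matched to libraries by name, and no column was left out.

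Counts were summed per gene symbol and each pair of groups was tested on its 6 libraries with edgeR 4.0.16 in R 4.3.3 (TMM scaling, quasi-likelihood test, two-sided, Benjamini-Hochberg adjustment over all genes), leaving out genes whose counts sum to under 10. Transcripts were tested in the same way, and the 95% intervals are those of edgeR's log2 fold changes. A gene was too low to judge when its pooled share, times the scaled size of the shallower group, predicted under 10 counts. The procedure was tested on simulated data. Transcript lengths, base composition and junctions come from GENCODE M21, in which 139921 of 140658 transcripts were matched by versioned identifier. All 41 genes were accounted for. Single-library values are given for those that passed over Input and for at least 1 gene per role, and of the other synaptic genes the 4 highest and 4 lowest are named, except 1 that is not reported here. The members and lists were chosen with earlier results of these data known. Alternatives were RLE factors, library totals, filterByExpr, no filter, DESeq2 1.42.0, limma 3.58.1 on log2(CPM + 1), all 9 libraries, the replicate number as a block, a fold threshold, and each library left out. Replicate libraries differed beyond sampling noise (4.14 to 17.6 for chi-square divided by its degrees of freedom, over genes), so none was a copy of another.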

Additional observations from a re-analysis of the deposited data

How the results depend on the processing

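In p-UPF1 IP over Input, 15 of the 28 judged members kept their direction and their side of the threshold under all alternatives. Scaling by library totals gave 4 lower, 11 enriched and 1 depleted member, and limma on log2(CPM + 1) gave 3 enriched. With a log2 fold change beyond 1 required, 7 were higher and 4 lower. Log2 fold changes turned positive with library totals for Gabbr1 (0.20), Dlg2 (0.34), Nrxn3 (0.16) and Syp (0.13), and with single libraries left out Dlg2 ranged from -0.18 to 0.078 (the latter without p-UPF1 IP replicate 3) and Nrxn3 from -0.53 to 0.11 (the latter without p-UPF1 IP replicate 2); none of these 4 had been called. With single libraries left out, 11 to 15 members were higher, 6 or 7 lower, 5 to 8 enriched and 3 or 4 depleted.

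Replicate numbers share only a label: same-numbered libraries' deviations correlated at -0.03 to 0.05. With the replicate block, 14 members were higher and 7 lower over Input, Gria2 not passing (adjusted p = 0.0504, edgeR), and 2 were enriched and 2 depleted among member transcripts, Syn2-201 (0.0545), Syn2-205 (0.0504), Dlg4-205 (0.0614) and Homer1-204 (0.112) not passing. Over rIgG IP, counts are over all 28 tested members, those too low to judge included, of which 5 were higher and 1 lower as reported. There 2 were higher and 0 lower with the block, Nrxn2 (adjusted p = 0.0508, edgeR) and Camk2g (0.0753) being among those that did not pass. With RLE factors and with all 9 libraries in one fit 3 were higher. With filterByExpr and with DESeq2, 2 were higher and 2 lower. With single libraries left out, 2 to 5 were higher and 0 or 1 lower, and without rIgG IP replicate 1 only Grik5 and Syt11 were still higher. Dlg4 turned to -0.0057 with filterByExpr. In rIgG IP over Input, 1 member was lower with no filter and 5 with limma on log2(CPM + 1). There Dlg4 ranged from -0.029 (without rIgG IP replicate 1) to 0.33 with single libraries left out, and Snap25 turned to 0.023 with RLE factors and 0.025 with DESeq2.

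Of member transcripts, 14 were enriched with library totals and 12 with DESeq2, and with single libraries left out 4 to 6 were enriched and 9 to 16 depleted. The shares of all genes and all transcripts called under the alternatives are not given in this section. Nothing about the members as a group is read from these counts. Where 2 libraries of a group remain, the same fit was used, and the spread rests on fewer libraries. Depth limits the rIgG IP most, where 3 counts correspond to 6.32 to 38 CPM. The cause of these differences was not tested.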
